A study of Homo sapiens with 12 samples.

Results

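Expression of 7 ATP-binding cassette (ABC) exporters of drugs and conjugates was examined in human liver spheroid co-cultures exposed to total parenteral nutrition (TPN). The members were taken by gene symbol, as ABCC1, ABCC2, ABCC3, ABCC4, ABCB1, ABCB4 and ABCG2, and all 7 were found among the 16705 genes of the expression table. Each had a mean above 0.5 FPKM over the 12 libraries, the level that genes had to reach to be tested. FPKM corrects the fragments of a gene for the length of its transcript and for the depth of the library, so that levels of different genes are on one scale.

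The 12 libraries fell into 4 groups of 3, which were untreated spheroids left for 24 h or for 144 h and spheroids given 1% TPN for 24 h or for 144 h. All groups were made of C3A cells, which were cloned from the hepatoma line HepG2 and keep hepatocyte features, grown together with LX-2 cells, an immortalized line from activated hepatic stellate cells, and many spheroids were pooled for each library. TPN is a clinical infusion of amino acids, electrolytes, glucose and lipids with trace elements and vitamins. The labels number the replicates without naming their source, while the study's text speaks of independent experiments, so p values measure the spread between these samples.

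ABC exporters are membrane pumps that use ATP to move drugs, bile components and the glucuronide, sulfate and glutathione conjugates made by the liver out of the cell. In hepatocytes, ABCC2, ABCB1, ABCB4 and ABCG2 sit in the canalicular membrane and deliver their cargo into bile, whereas ABCC3 and ABCC4 sit in the basolateral membrane and return conjugates and bile salts to the blood. Several of these genes are known targets of the nuclear factor NRF2 and of the xenobiotic receptors PXR, CAR and AHR.

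The RNA matched the labelled hepatocyte lineage, and the stellate markers were uneven. All 10 hepatocyte markers reached 1 FPKM in each group. Of 10 markers of stellate cells and fibroblasts, those at 1 FPKM or more numbered 7 without and 6 with TPN at 24 h, then 3 without and 2 with TPN at 144 h. Their summed level was 83.0 to 85.5 FPKM, 71.6 to 73.9 FPKM, 52.0 to 56.5 FPKM and 47.8 to 50.4 FPKM in these groups. ACTA2, the smooth muscle actin of activated stellate cells, made up most of it, with means of 57.8, 47.3, 47.9 and 45.4 FPKM. The collagen gene COL1A1 had a mean of 15.1 FPKM in untreated spheroids at 24 h, then of 1.92 FPKM without and 0.747 FPKM with TPN at 144 h. PDGFRB was at 3.10, 3.01, 3.08 and 2.32 FPKM, while DES, LUM and DCN stayed at or below 0.09 FPKM in every library. The summed hepatocyte markers ran from 14700 to 15100 FPKM, 13900 to 14000 FPKM, 18700 to 19900 FPKM and 15600 to 16700 FPKM in the same order. The part of these shifts in the results that follow was not tested, and in bulk RNA fewer cells of a type and less RNA per cell cannot be told apart. Endothelial markers summed to at most 0.53 FPKM, only CD68 of the macrophage markers reached 1 FPKM, and 3 cholangiocyte markers that hepatoma cells also express were present. The steps between low FPKM values in 27 short genes corresponded to about 1.88e+07 fragments per library. FPKM summed to between 561657 and 583722 per library, and replicates of a group correlated across genes with r between 0.9934 and 0.996.

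Upstream sequence was available for 4 of the 7 exporters, ABCC2, ABCC4, ABCB1 and ABCG2, as 9 windows of the 250 bases before an annotated start in RefSeq (GRCh38.p14). ABCC1, ABCC3 and ABCB4 were not in the sequence table. The windows of ABCC2 and ABCC4 are shown because these conjugate exporters serve the canalicular and the basolateral side. Their calls with TPN were a further reason, as ABCC2 rose at both times. ABCC4 passed the test at 144 h alone, as ABCB1 and ABCB4 also did. The windows of ABCB1 and ABCG2 at the main start, with 194 and 250 bases in annotated exons, are not shown. Whether the letters of a window relate to the response to TPN was not tested. The ABCC2 window lies at chr10:99782390-99782639 on the plus strand and the ABCC4 window at chr13:95301452-95301701 on the minus strand, both ending at the base before the start of the main transcript. Capitals mark matches, on either strand, to the antioxidant response element core TGACNNNGC and the xenobiotic response element core GCGTG.

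ABCC2: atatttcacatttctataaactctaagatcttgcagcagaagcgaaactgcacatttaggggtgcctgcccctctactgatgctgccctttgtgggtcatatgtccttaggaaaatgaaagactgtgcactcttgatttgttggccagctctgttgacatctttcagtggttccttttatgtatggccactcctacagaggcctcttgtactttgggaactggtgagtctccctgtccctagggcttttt

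ABCC4: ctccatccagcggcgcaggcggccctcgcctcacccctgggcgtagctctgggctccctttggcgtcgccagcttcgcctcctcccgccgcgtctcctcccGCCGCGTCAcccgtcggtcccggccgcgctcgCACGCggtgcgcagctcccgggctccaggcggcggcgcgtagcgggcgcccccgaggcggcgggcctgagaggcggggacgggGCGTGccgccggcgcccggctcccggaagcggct

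No match to these motifs, or to the nuclear receptor half-site AGTTCA, was found in the ABCC2 window. The ABCC4 window held 1 antioxidant response element core, GCCGCGTCA on the reverse strand, 149 bases before the start, and 2 xenobiotic response element cores, 117 and 34 bases before it. Of the ABCC4 window, 24 bases lie in an annotated exon. Of the 2 ABCB1 windows, the one at the main start held GCGTG, with 194 of its bases in annotated exons, and the one that held AGTTCA lies 112411 bases upstream of that start. Of the 5 ABCG2 windows, 3 held 2 GCGTG matches each, with 250, 165 and 115 bases in annotated exons, and 2 held none. The last 2 of these 3 overlap and hold the same sites. Among 35116 windows of all genes, TGACNNNGC was found in 10.9%, GCGTG in 32.2% and AGTTCA in 8.80%. A match describes the letters of the window and is no evidence of a bound factor, and a window without one says nothing about sites elsewhere.

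ABCC2 was the most abundant exporter in every group, and the order of the others depended on time and exposure. In untreated spheroids at 24 h the order of mean FPKM was ABCC2, ABCB1, ABCC3, ABCC1, ABCB4, ABCG2 and ABCC4, and the same order held with TPN at 144 h. ABCC2 made up 61.0% of the summed FPKM of the 7 genes without and 69.8% with TPN at 24 h, and 60.5% without and 67.4% with TPN at 144 h. Its level was above that of 94.4% of the genes tested in untreated spheroids at 24 h. With TPN at 24 h ABCG2 stood above ABCB4, and the libraries of ABCB1 and ABCC3 overlapped, the only neighbours in the order of any of the 4 groups that did. In untreated spheroids at 144 h ABCC1 stood above ABCC3. The summed level of the 7 exporters was 219.6 ± 2.49 FPKM (SD, n = 3) in untreated spheroids and 321.4 ± 7.43 FPKM with TPN at 24 h, and 205.7 ± 8.41 FPKM and 364.6 ± 2.39 FPKM at 144 h. Without ABCC2 the sum was 85.74 ± 0.556 FPKM and 97.07 ± 1.70 FPKM at 24 h and 81.1 ± 1.44 FPKM and 118.9 ± 0.453 FPKM at 144 h.

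**Figure D1:**
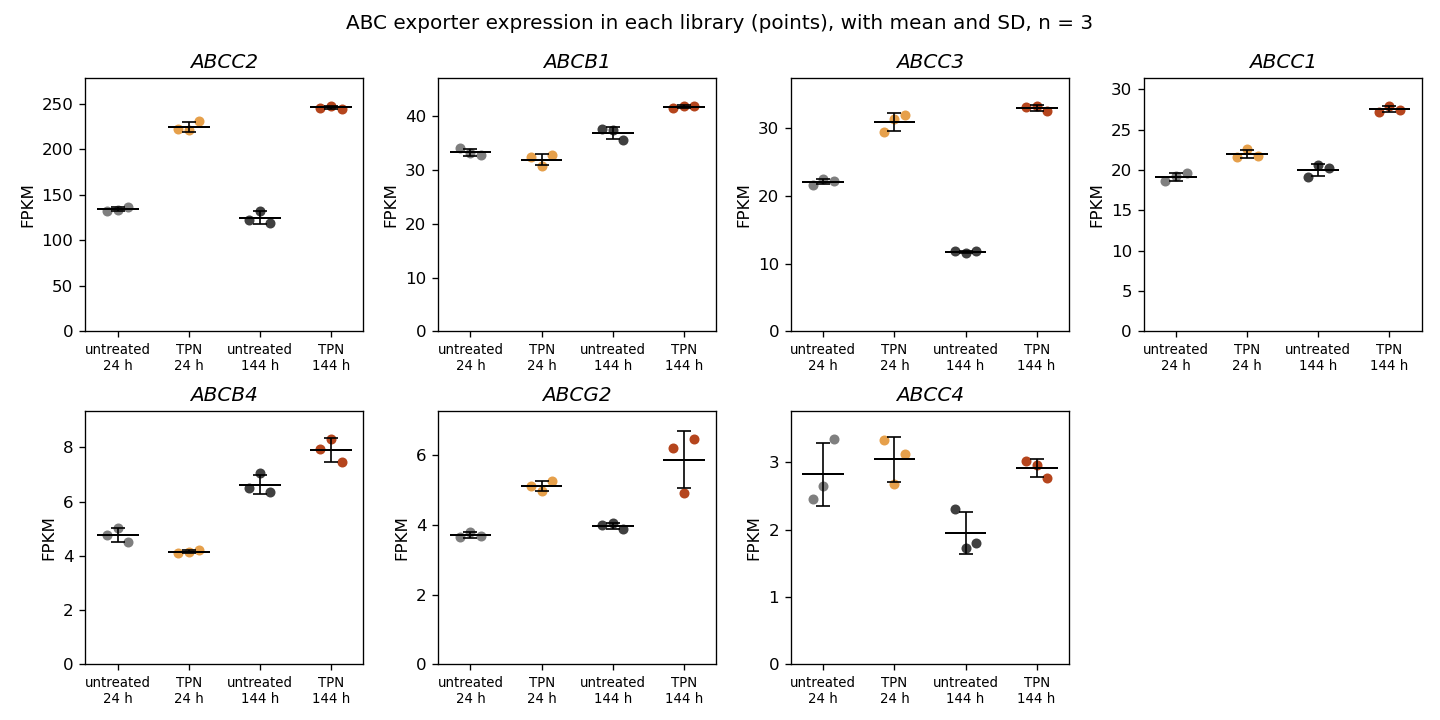
FPKM of each exporter (vertical axes from 0, scaled per gene) in the 4 groups, with 1 point per library, the mean as a horizontal line and the SD as an error bar (n = 3). ABCC2 lies between 118.67 and 136.31 FPKM in untreated libraries and between 220.51 and 247.84 FPKM with TPN, and ABCC3 is lowest in untreated spheroids at 144 h, with a mean of 11.71 FPKM.

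The first comparison asked what short exposure to TPN did to the exporters. After 24 h, ABCC2, ABCC3, ABCG2 and ABCC1 rose, none fell, and ABCC4, ABCB1 and ABCB4 did not pass the test. Thus 4 of 7 members rose at an adjusted p value below 0.05 (limma on log2 FPKM + 0.1, Benjamini-Hochberg over 11713 genes), against 5.04% of all genes tested that rose and 5.46% that fell. ABCC2 alone also exceeded an absolute log2 fold change of 0.58, the study's threshold for a differentially expressed gene (DEG), against 0.640% of all genes in this direction. Libraries of the groups did not overlap for 5 members, against 29.9% of all genes. The median log2 fold change was 0.20 for the members and -0.0045 for all genes tested. With 3 libraries per group the exact permutation test of 1 gene cannot give a p below 0.1.

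ABCC2 (MRP2, gene ID 1244, chr10:99782640-99852594 plus strand), the canalicular pump for bilirubin glucuronides and glutathione conjugates, was read at 132.19, 133.06 and 136.31 FPKM in untreated spheroids and at 221.52, 220.51 and 230.97 FPKM with TPN at 24 h. The groups lay far apart, and the mean was 1.68 times as high with TPN. On the log2 scale the difference was 0.74 (SE 0.0358, limma adjusted p = 1.29e-08).

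ABCC3 (MRP3, gene ID 8714, chr17:50634777-50692253 plus strand), the basolateral pump for glucuronides, was read at 21.64, 22.43 and 22.13 FPKM without and at 29.38, 31.31 and 31.95 FPKM with TPN at 24 h. The exposed libraries were all above the untreated ones, with a log2 fold change of 0.48 (SE 0.0362, limma adjusted p = 1.33e-06). ABCG2 (BCRP, gene ID 9429, chr4:88090150-88231628 minus strand), a canalicular pump for sulfates, urate and many drugs, was read at 3.66, 3.81 and 3.68 FPKM without and at 5.12, 4.96 and 5.27 FPKM with TPN. Its groups were also apart, and the log2 fold change was 0.45 (SE 0.0843, limma adjusted p = 0.00355).

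ABCC1 (MRP1, gene ID 4363, chr16:15949138-16143257 plus strand), a pump for glutathione conjugates and leukotrienes, moved less. Its libraries were at 18.59, 19.24 and 19.59 FPKM without and at 21.58, 22.58 and 21.77 FPKM with TPN at 24 h. The groups did not overlap, and the log2 fold change was 0.20 (SE 0.0374, limma adjusted p = 0.00373).

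For the remaining members no change was called at 24 h. ABCB4 (MDR3, gene ID 5244, chr7:87401696-87480435 minus strand), the floppase that brings phosphatidylcholine into bile, was at 4.78, 5.03 and 4.51 FPKM without and at 4.12, 4.13 and 4.23 FPKM with TPN. All exposed libraries were below the untreated ones, yet the log2 difference of -0.19 (SE 0.0618) missed the threshold (limma adjusted p = 0.0649) and was called only when the replicate number was a block (adjusted p = 0.0498). ABCB1 (P-glycoprotein, gene ID 5243, chr7:87503017-87713323 minus strand), the pump for hydrophobic drugs, was at 33.98, 33.01 and 32.67 FPKM without and at 32.3, 30.71 and 32.67 FPKM with TPN. These ranges touched, and the log2 difference was -0.06 with a 95% interval from -0.13 to 0.01 (limma adjusted p = 0.326). With 1 library left out this difference ran from -0.0765 to -0.032 (without TPN replicate 2) and was not called. The ABCB1 gene body overlaps that of RUNDC3B, and whether the counting used strand is not given in the sources used here.

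ABCC4 (MRP4, gene ID 10257, chr13:95019835-95301475 minus strand), a basolateral pump for bile salts and cyclic nucleotides, was at 2.46, 2.65 and 3.35 FPKM without and at 3.33, 2.67 and 3.12 FPKM with TPN. The groups overlapped, with a log2 difference of 0.11 and a 95% interval from -0.16 to 0.39 (limma adjusted p = 0.663). With 1 library left out the difference ran from 0.022 (without untreated replicate 1) to 0.24 (without untreated replicate 3), and it was not called in any of these fits. About 296 fragments lay behind an untreated ABCC4 value at 24 h. Counting alone then gives a coefficient of variation of 5.81%, and the observed one was 16.6%. For ABCG2 in the same group counting gives 6.03% and 2.19% was observed, so the SD of 3 libraries can understate the spread. For ABCC2 about 13900 fragments lay behind each value in the same group.

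The second comparison asked the same after long exposure. At 144 h all 7 members were higher with TPN, ABCC3 and ABCC2 by the most and ABCB1 by the least. The adjusted p value was below 0.05 for 7 of 7, against 24.2% of all genes tested that rose and 28.3% that fell. For 7 of 7 every exposed library was above the untreated ones, against 27.2% of all genes. ABCC3 and ABCC2 were DEGs, against 5.75% of all genes in this direction. The median log2 fold change of the members was 0.54, and that of all genes tested was -0.018.

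ABCC3 was read at 11.8, 11.56 and 11.78 FPKM in untreated spheroids and at 33.08, 33.29 and 32.5 FPKM with TPN at 144 h. The mean was 2.81 times as high, with a log2 fold change of 1.48 (SE 0.0362, limma adjusted p = 2.09e-12). ABCC2 was read at 122.71, 132.41 and 118.67 FPKM without and at 245.29, 247.84 and 244.03 FPKM with TPN. Its mean was 1.97 times as high, with a log2 fold change of 0.98 (SE 0.0358, limma adjusted p = 1.42e-10).

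ABCC4 and ABCG2 lay just below the DEG threshold. ABCC4 was at 2.3, 1.73 and 1.8 FPKM without and at 3.01, 2.96 and 2.76 FPKM with TPN, so the groups were apart at 144 h where they overlapped at 24 h. Its log2 fold change was 0.57 (SE 0.128, limma adjusted p = 0.00205), and between 0.49 and 0.69 with 1 library left out. ABCG2 was at 3.99, 4.06 and 3.88 FPKM without and at 6.22, 4.93 and 6.48 FPKM with TPN, and replicate 2 was the low one of the exposed group. Its log2 fold change was 0.54 (SE 0.0843, limma adjusted p = 0.000114), and it was 0.66, past the DEG threshold, without that library.

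ABCC1, ABCB4 and ABCB1 rose by smaller amounts. ABCC1 was at 19.19, 20.64 and 20.22 FPKM without and at 27.19, 27.99 and 27.48 FPKM with TPN, a log2 fold change of 0.46 (SE 0.0374, limma adjusted p = 2.85e-07). ABCB4 was at 6.49, 7.04 and 6.36 FPKM without and at 7.93, 8.33 and 7.46 FPKM with TPN, a log2 fold change of 0.25 (SE 0.0618, limma adjusted p = 0.00381). ABCB1 was at 37.58, 37.37 and 35.52 FPKM without and at 41.39, 41.91 and 41.84 FPKM with TPN, a log2 fold change of 0.18 (SE 0.0341, limma adjusted p = 0.000569).

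**Figure D2:**
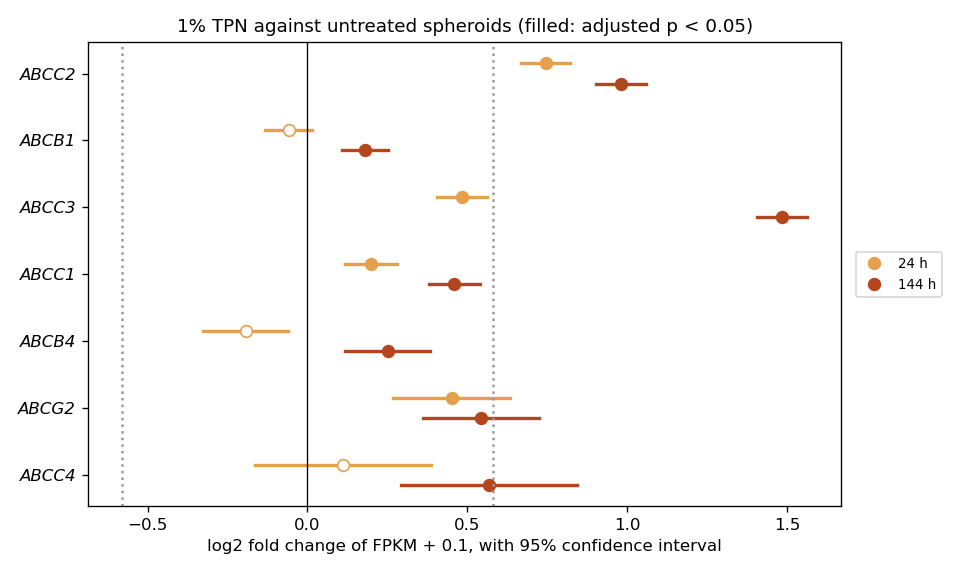
Log2 fold change of FPKM + 0.1 (horizontal axis) for 1% TPN against untreated spheroids at 24 h and at 144 h, 1 row per exporter, with 95% confidence intervals as lines, filled points for an adjusted p below 0.05 and dotted lines at 0.58 in both directions. All 7 points at 144 h are filled and above 0, and those of ABCB1, ABCB4 and ABCC4 at 24 h are open.

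Whether the response differed between the exposure times was tested by the interaction term, the TPN effect at 144 h minus that at 24 h. The TPN effect was higher at 144 h for ABCC3, ABCB4, ABCC1, ABCB1 and ABCC2. For ABCC3, ABCC1 and ABCC2 a rise at 24 h was larger at 144 h, whereas ABCB4 and ABCB1 were at -0.19 and -0.06 at 24 h, neither called, and at 0.25 and 0.18 at 144 h. These 5 of 7 members passed an adjusted p value of 0.05, against 14.1% of all genes tested in this direction, and none passed in the other, where 16.3% of all genes did. Only ABCC3 also exceeded 0.58, against 4.20% of all genes. The difference was 1.00 for ABCC3 (SE 0.0512, limma adjusted p = 3.91e-08) and 0.44 for ABCB4 (SE 0.0873, limma adjusted p = 0.00189). That of ABCC3 includes a log2 fold change over time of -0.91 in untreated spheroids, against 0.09 with TPN. ABCC1, ABCB1 and ABCC2 had differences of 0.26, 0.24 and 0.24 (limma adjusted p = 0.00229, 0.00221 and 0.00333). ABCC4 had one of 0.46 that missed the threshold (limma adjusted p = 0.072) and was called without replicate 1 of untreated spheroids at 24 h (0.55, adjusted p = 0.0449) or without replicate 1 at 144 h (0.58, adjusted p = 0.0238). For ABCG2 the difference was 0.09 with a 95% interval from -0.17 to 0.35 (limma adjusted p = 0.599), and with 1 library left out it ran from 0.018 (without TPN replicate 3 at 144 h) to 0.21 (without TPN replicate 2 at 144 h, adjusted p = 0.0775).

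The comparisons over time asked how the exporters moved in culture without and with TPN. They share their libraries with the comparisons above. The median of all genes tested was -0.18 on the log2 scale in untreated and in exposed spheroids as deposited, and -0.0074 and -0.011 after median-ratio scaling, so time changes are read against that shift. ABCC3 and ABCC4 fell in untreated spheroids and ABCB4 and ABCB1 rose. In all, 2 of 7 members rose against 20.1% of all genes, and 3 fell against 52.4%, counting ABCC2, whose direction turned under other scalings. ABCC3 was the only member past the DEG threshold, against 12.2% of all genes that were DEGs in this direction. After median-ratio scaling or quantile normalization, 4 members rose and 2 fell, where 33.2% or 29.1% of all genes rose and 33.7% or 37.9% fell.

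ABCC3 went from a mean of 22.07 ± 0.399 FPKM at 24 h to 11.71 ± 0.133 FPKM at 144 h in untreated spheroids (SD, n = 3), with no overlap. The log2 fold change was -0.91 (SE 0.0362, limma adjusted p = 1.09e-10), and over all settings tried it ran from -0.92 to -0.73. ABCC4 went from 2.82 ± 0.469 FPKM to 1.943 ± 0.311 FPKM, a log2 fold change of -0.51 (SE 0.128, limma adjusted p = 0.0025). With 1 library left out this fold change ran from -0.64 to -0.39. It passed the DEG threshold without replicate 1 of either untreated group. ABCB4 went from 4.773 ± 0.26 FPKM to 6.63 ± 0.361 FPKM, a log2 fold change of 0.47 (SE 0.0618, limma adjusted p = 1.19e-05), and ABCB1 had one of 0.15 (SE 0.0341, limma adjusted p = 0.00142). After median-ratio scaling and quantile normalization ABCC4 was at -0.34 and -0.41, ABCB1 at 0.33 and 0.32, and ABCB4 at 0.64 and 0.59, past the DEG threshold, as 10.5% and 9.0% of all genes were in this direction.

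ABCC2 in untreated spheroids had a log2 fold change of -0.10 over time (SE 0.0358, limma adjusted p = 0.0174) with overlapping groups, and this turned to 0.073 and 0.052 after median-ratio scaling and quantile normalization. ABCC1 and ABCG2 were not called, at 0.06 with a 95% interval from -0.02 to 0.14 and 0.10 with one from -0.09 to 0.28, and both passed the test after either scaling (ABCC1 0.24 and 0.22, ABCG2 0.27 and 0.21).

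With TPN, ABCB4, ABCB1, ABCC1, ABCC2 and ABCC3 rose from 24 h to 144 h and none fell, which was 5 of 7 against 24.2% of all genes that rose and 52.0% that fell. ABCB4 was the only DEG among them, against 9.51% of all genes in this direction. It went from 4.16 ± 0.0608 FPKM to 7.907 ± 0.435 FPKM, 1.90 times as high and a log2 fold change of 0.91 (SE 0.0618, limma adjusted p = 1.02e-08). ABCB1 and ABCC1 had log2 fold changes of 0.39 and 0.33 (limma adjusted p = 1.51e-07 and 2.37e-06). ABCC2 had one of 0.13 (limma adjusted p = 0.00425). After the same scalings 6 members rose, where 36.1% or 31.9% of all genes rose and 36.5% or 41.1% fell, with ABCC1 at 0.50 after both and ABCC2 at 0.31 and 0.24.

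ABCC3 differed between the exposures in its course over time, and the test of that is the interaction term given above. With TPN its mean was 30.88 ± 1.34 FPKM at 24 h and 32.96 ± 0.409 FPKM at 144 h, a log2 fold change of 0.09 (SE 0.0362, limma adjusted p = 0.0292). That call was lost with libraries scaled to the same FPKM sum or with only these groups in the model, and without replicate 1 at 24 h (0.059, adjusted p = 0.157), replicate 1 at 144 h (0.092, adjusted p = 0.0678) or replicate 2 at 144 h (0.087, adjusted p = 0.0775). After median-ratio scaling and quantile normalization it was kept, at 0.27 after both (adjusted p = 9.94e-06 and 1.15e-05). ABCG2 with TPN had a log2 fold change of 0.19 that was not called (limma adjusted p = 0.058) and was called without replicate 2 at 144 h (0.31, adjusted p = 0.000614), while without replicate 3 at 144 h it was 0.11 (adjusted p = 0.252). It was also called after median-ratio scaling (0.36, adjusted p = 0.00149) and quantile normalization (0.29, adjusted p = 0.00731). ABCC4 was at -0.06 with a 95% interval from -0.33 to 0.22.

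**Figure D3:**
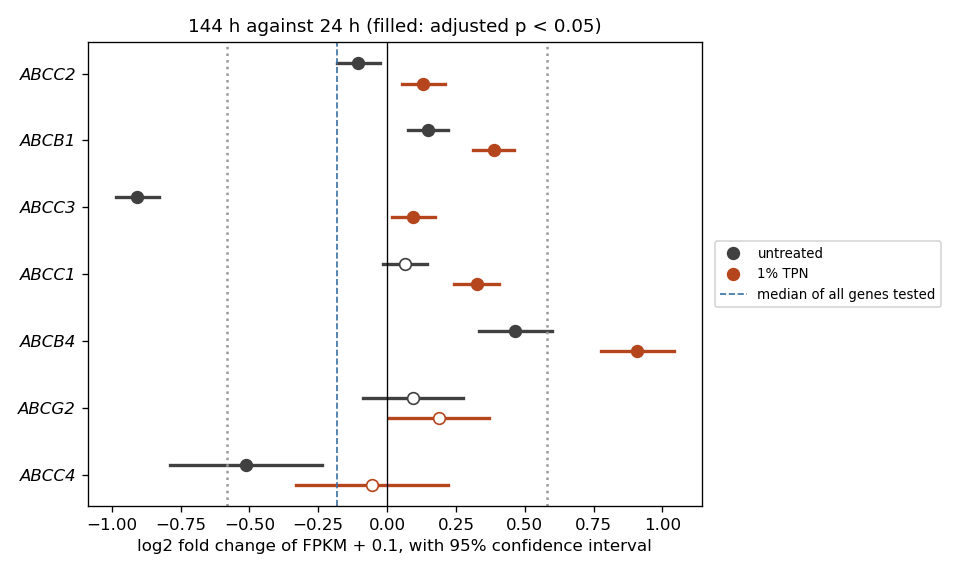
Log2 fold change of FPKM + 0.1 (horizontal axis) for 144 h against 24 h in untreated and in exposed spheroids, 1 row per exporter, with 95% confidence intervals, filled points for an adjusted p below 0.05, dotted lines at 0.58 in both directions and a dashed line at the all-gene median of -0.18. ABCC3 is at -0.91 without TPN and 0.09 with it, and ABCB4 is at 0.47 and 0.91.

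Ratios within a library were taken for pairs of exporters. The level of ABCC2 over that of ABCC3 was 6.067 ± 0.119 in untreated spheroids and 7.271 ± 0.251 with TPN at 24 h, and 10.64 ± 0.722 and 7.456 ± 0.0478 at 144 h (SD, n = 3). The libraries of untreated spheroids at 144 h were the highest, at 10.4, 11.45 and 10.07. The ratio of ABCB1 over its chromosomal neighbour ABCB4 was 6.972 ± 0.361 and 7.666 ± 0.208 at 24 h and 5.561 ± 0.242 and 5.286 ± 0.294 at 144 h. Over the 12 libraries r was highest for ABCB1 and ABCB4 (0.961) and for ABCC2 and ABCG2 (0.912). It was below 0 for ABCB4 with ABCC4 (-0.346) and with ABCC3 (-0.161), and for ABCB1 with ABCC4 (-0.142). These values describe libraries that share 4 groups. ABCB1 and ABCB4 share 119 words of 50 bases between their main transcripts, 2.31% and 2.8% of each, so a small part of their reads could be split between them.

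The genes whose levels ran most like each exporter were found by Pearson r of log2(FPKM + 0.1) over the 12 libraries, as a description. For ABCC2 they were SRXN1 (r = 0.9917), HMOX1 (r = 0.9914) and TXNRD1 (r = 0.9846), which encode enzymes of the oxidative stress response. For ABCC3 they were ASAP2, SLC5A11 and DBNDD1, with r between 0.9869 and 0.9925. ABCC1 ran most like ARFGAP1, MYO15B and TRPV3 (0.9855 to 0.9868), ABCB1 like ZXDB, FUT3 and RNF11 (0.9824 to 0.9865) and ABCB4 like ATRN, GK and MARCKS (0.985 to 0.9863). ABCG2 had lower values, with SQSTM1, TKT and SPSB1 at 0.9402 to 0.948, and ABCC4 the lowest, with TCF20, SSU72 and GNG10 at 0.9215 to 0.9321. FUT3 had means of 0.26 FPKM without and 0.20 FPKM with TPN at 24 h, and 0.68 FPKM and 1.47 FPKM at 144 h. It reached the level for testing only through the exposed group at 144 h.

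The rest of the ABC superfamily was counted in the same fit. Of 26 other ABC genes tested, 5 rose and 12 fell at 144 h of TPN, with a median log2 fold change of -0.0955, where 24.2% of all genes tested rose and 28.3% fell. At that time 5.75% of all genes were DEGs that rose. After 24 h of exposure 2 had risen and 2 had fallen, where 5.04% of all genes rose and 5.46% fell. Among 12 further ABCB and ABCC genes at 144 h, 3 rose and 6 fell and none was a DEG. ABCC5, a pump for cyclic nucleotides, rose by 0.54 on the log2 scale, and ABCC6 and the peptide transporter subunit TAP1 had -0.55 and -0.34. Among 7 ABCA and other ABCG genes, ABCA3, a phospholipid transporter, was the only DEG at 0.83, and ABCG8, a subunit of the canalicular sterol pump, was at -0.54. None of 7 ABCD, ABCE and ABCF genes rose and 3 fell.

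**Figure D4:**
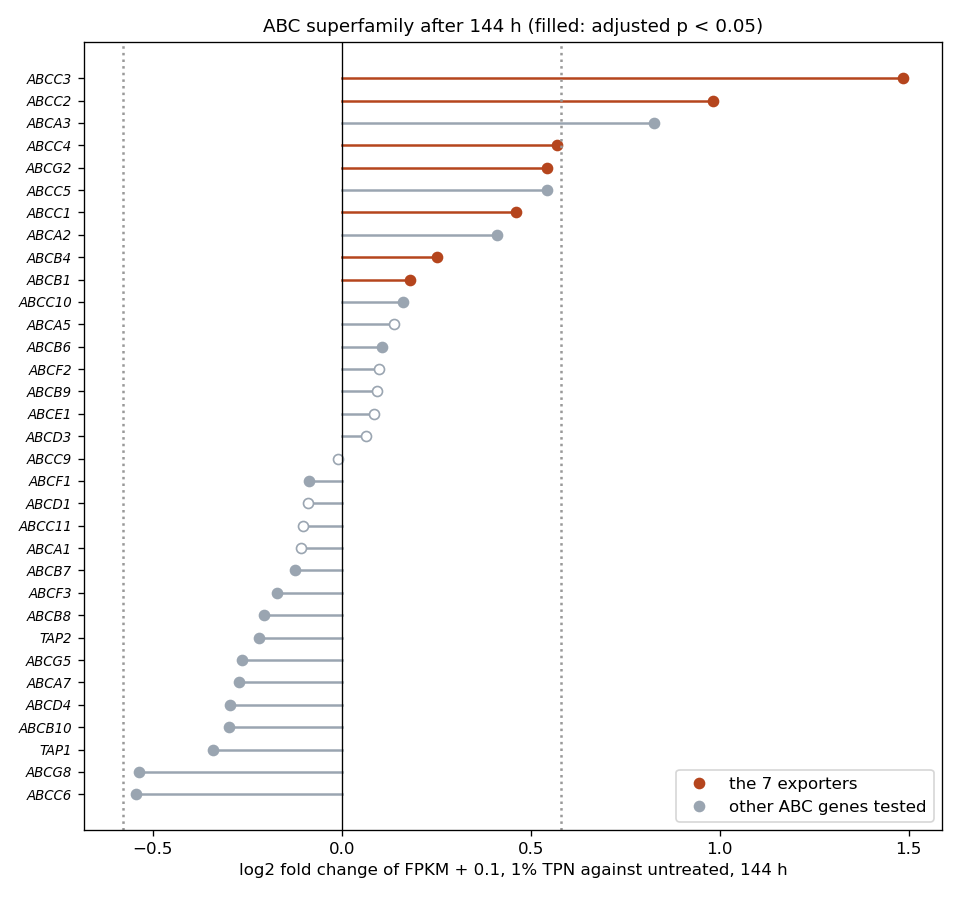
Log2 fold change of FPKM + 0.1 (horizontal axis) for 1% TPN against untreated spheroids at 144 h in the 7 exporters and 26 other ABC genes tested, with filled points for an adjusted p below 0.05 and dotted lines at 0.58 in both directions. All 7 exporters are above 0, and 12 of the other genes are filled and below 0.

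Genes around the exporters were counted in the same fit at 144 h of TPN, where 24.2% of all genes tested rose and 28.3% fell. DEGs that rose made up 5.75% of all genes. Of 5 uptake carriers for anions and bile acids, 2 rose and 2 fell, with SLCO4A1 at 0.56 and SLC22A9 at -0.60. Of 6 genes for export without an ABC pump, 1 rose and 3 fell. Of 8 genes of glucuronidation, 5 rose, 4 of them as DEGs, and 1 fell. Among the risers, UGT1A1 and UGT2B4 reached the level for testing only through the exposed group at 144 h, where they are high, so these counts favour a rise. UGT1A1, which conjugates bilirubin, had a log2 fold change of 3.41 and UGT1A6 one of 1.62, and these genes share exons that reads cannot tell apart. Of 8 genes of sulfation, 3 rose and 2 fell. Of 18 genes of glutathione synthesis and conjugation, 6 rose, 5 of them as DEGs, and 3 fell, with GCLM, a subunit of the enzyme that starts glutathione synthesis, at 2.14.

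Of 15 transcription factors known to act on exporter genes, 7 rose and 6 fell at 144 h, against the same 24.2% and 28.3% of all genes. MAFG, a partner of NRF2, was at 0.53, NR1I2, which encodes PXR, at 0.53, and NR1H4, which encodes the bile acid receptor FXR, at -0.81. NFE2L2, which encodes NRF2 and is named outside the rule after its values were seen, fell at both times, with log2 fold changes of -0.31 at 24 h and -0.40 at 144 h (limma adjusted p = 1.95e-05 and 1.93e-07). All 10 targets of NRF2 rose at 24 h and at 144 h, 9 of them as DEGs at each time, with median log2 fold changes of 1.09 and 1.63. This list, like the other lists and the members, was chosen with earlier results of these data known. Its counts describe these genes and are no test of NRF2. At 24 h 5.04% of all genes tested rose and 5.46% fell. DEGs that rose were 0.640% of all genes at 24 h and 5.75% at 144 h. SRXN1, HMOX1 and TXNRD1, the genes most like ABCC2, belong to the list of NRF2 targets. Any part of NRF2 in the rise of ABCC2 was not tested. Of 5 targets of PXR, CAR and AHR tested, 3 fell and none rose after short exposure, whereas 2 rose and 1 fell after long exposure, with CYP2B6 at 1.32. Of 10 genes of apical scaffolds and membrane traffic, 3 rose and 3 fell at 144 h.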

How the data were processed

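RNA was sequenced in 12 libraries on the DNBSEQ platform. Per the study's methods the authors filtered reads with SOAPnuke, mapped them with HISAT2 2.0.4 and Bowtie2 2.2.5 (GRCh38.p13 in the submitters' processing notes) and calculated with RSEM the deposited FPKM values, which were used unscaled. 20 lines that continued an annotation cell were dropped. The authors' own test, DESeq2, was not run here because it needs counts. Expression was tested in genes averaging 0.5 FPKM or more, as log2(FPKM + 0.1) with limma 3.58.1 (R 4.3.3), with 4 group means, an intensity trend and Benjamini-Hochberg adjustment, and a DEG had an adjusted p below 0.05 with a log2 fold change beyond 0.58 in either direction. "Rose" and "fell" mean an adjusted p below 0.05. The added 0.1 understates changes of low genes.

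The members and lists were chosen with earlier results of these data known. The 7 members are always named. Up to 4 genes of a list (the 2 highest and 2 lowest log2 fold changes of a comparison) and the 3 genes most like each member may be named. Coordinates are from GENCODE v44 (GRCh38), since those of the expression table place ABCC1 across different sequences. In simulated libraries of TPN against untreated at 144 h, 196 of 200 changed genes were recovered among 11713, with 0 false calls. Recovery of changes below the DEG threshold, where most members lay at 144 h, was not tested. Depth was estimated from transcript lengths less 273 bases and covers counting error only. Alternatives changed the pseudocount, filter, scaling, model and threshold, added a replicate block and left out each library. Tables and figures used Python 3.11.15, matplotlib 3.10.9, scipy 1.17.1, pandas 2.3.3 and numpy 2.4.6.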

Additional observations from a re-analysis of the deposited data

Results flagged for a closer look

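The TPN effect differed between 24 h and 144 h by the interaction test in limma for 5 of 7 exporters. It was higher at 144 h in each. Of all genes tested, 14.1% passed in this direction and 16.3% in the other. Only ABCC3 also exceeded 0.58, against 4.20% of all genes. The difference on the log2 scale was 1.002 for ABCC3 (adjusted p = 3.91e-08), 0.443 for ABCB4 (0.00189), 0.261 for ABCC1 (0.00229), 0.239 for ABCB1 (0.00221) and 0.236 for ABCC2 (0.00333). For ABCC3 it includes a fall of untreated spheroids over time, and for ABCB4 and ABCB1 the TPN effect was on the other side of 0 at 24 h, at -0.193 and -0.059, neither called, against 0.251 and 0.180 at 144 h. Stellate markers moved unevenly over the same time in untreated spheroids. Their log2 fold changes were -2.93 for COL1A1, -2.59 for COL3A1, -2.66 for THY1, -0.27 for ACTA2 and -0.008 for PDGFRB. For TPN against untreated at 144 h they were uneven too, at -1.25 for COL1A1, -1.40 for COL3A1 and -0.40 for PDGFRB. THY1 and ACTA2, at -0.38 and -0.08, were not called there. Their part was not tested.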

How the results depend on the processing

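Where a member was tested, its direction and its side of an adjusted p of 0.05 held for TPN at 144 h in each alternative run, and at 24 h in each but the replicate block for ABCB4. DEGs among the members at 144 h numbered 2, but 3 with a pseudocount of 0.01 (ABCC4 at 0.59) and 2 to 3 with 1 library left out (3 without untreated replicate 1, ABCC4 at 0.69, TPN replicate 3, ABCC4 at 0.60, or TPN replicate 2, ABCG2 at 0.66). With an adjusted p below 0.05 alone, 4 members were called at 24 h, 7 at 144 h, 5 in the interaction, 5 over time in untreated spheroids and 5 with TPN, against 1, 2, 1, 1 and 1 DEGs, and the genes called went from 107, 1110, 687, 2230 and 3123 to 1230, 6144, 3565, 8498 and 8925. Over time in untreated spheroids 2 members were called after median-ratio scaling and 2 after quantile normalization (ABCB4 was added, where 10.5% and 9.0% of all genes were DEGs that rose). With 1 library left out 1 to 2 were called. It was 2 without replicate 1 of either untreated group, where ABCC4 was added (-0.60 without that at 24 h). In the main fit 12.2% of all genes were DEGs that fell. ABCC2 over time in untreated spheroids turned to 0.073 and 0.052 under these scalings, and its call was lost without untreated replicate 3 at 24 h (-0.092), replicate 1 at 144 h (-0.095) or replicate 3 at 144 h (-0.070). ABCC4 over time with TPN turned to 0.11 after median-ratio scaling, and with 1 library left out it ran from -0.14 to 0.010, the latter without TPN replicate 1 at 24 h. ABCC1 over time in untreated spheroids was called without replicate 1 at 144 h (0.094). The cause was not tested. With a pseudocount of 1 the genes called were 58, 698 and 435 at 24 h, at 144 h and in the interaction, and with a mean FPKM of at least 5 they were 59, 523, 282, 1337 and 2029, where fewer genes were tested and ABCC4 and ABCG2 were left out.

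Replicate numbers were not taken to pair the libraries, as same-numbered libraries had deviations with a mean r of 0.0477 (-0.083 to 0.151). The mean r was -0.0239 for other numbers, and 7 of 12 libraries were most like their own number, so a weak pairing is possible. With the number as a block, ABCB4 at 24 h kept -0.19 and was called (adjusted p = 0.0498). Depth limits ABCC4, ABCB4 and ABCG2 most, with 204 to 598 fragments per value. No interaction could be fitted with only 2 groups in the model.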
